A study of Mus musculus with 5 samples.

Results

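Endothelial cells, the cells that line blood and lymph vessels, were followed in single-cell RNA profiles of mouse pancreas and pancreatic tumours. Cell barcodes were selected on measured values: a barcode was a member when Pecam1, Cdh5, Kdr, Plvap and Egfl7 together gave at least 3 UMIs (unique molecular identifiers, each standing for 1 captured RNA molecule) and at least 2 of these 5 genes were seen. It also had to hold 0 UMIs of Ptprc and Epcam, which mark leukocytes and epithelium. C1qa, C1qb and C1qc, complement genes of macrophages, had to stay under 10 UMIs per 10000, and Col1a1, Col3a1 and Dcn, matrix genes of fibroblasts, under 30 per 10000. Of 10718 barcodes with at least 200 genes and at most 20% mitochondrial UMIs, 166 met the rule, and 133 of them came from a single library, that of early KIC.

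The series holds 5 libraries of untreated mice, 1 per group. The tumour groups are late KIC at 60 days of age, late KPfC at 60 days, late KPC at 6 months and early KIC at 40 days, and the fifth group is normal pancreas at 60 days. Late KPfC was on the C57BL/6 strain, and late KIC, late KPC, early KIC and the normal pancreas were on a mixed C57BL/6 and FVB background. KIC, KPfC and KPC are names of pancreatic cancer models that differ by loss of Ink4a (KIC), a floxed Trp53 (KPfC) or a mutant Trp53 (KPC), with a Cre that a promoter of the pancreatic lineage drives. The alleles, the Cre line and the number of animals per library are not spelled out in the labels. With 1 library per group no difference between groups could be tested, so every value below describes these libraries. The intervals, all at 95%, cover counting error only.

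Blood vessel endothelium differs along the vessel tree: arteries use Notch signalling, veins present adhesion molecules to leukocytes, and capillaries handle the exchange of water, lipids and hormones. VEGF, made by surrounding cells, acts on endothelium through the receptors Kdr and Flt1 and drives tip cells, the leading cells of a growing vessel. In the pancreas the capillaries around the islets are dense and fenestrated, that is, pierced by pores bridged by diaphragms made of the Plvap protein.

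Before any comparison, several features of the libraries matter. As deposited, late KIC had 938 barcodes with 13357997 UMIs, late KPfC 3143 with 26749820, late KPC 1377 with 3488871, early KIC 3534 with 8313769 and normal pancreas 2644 with 14768787. The median kept barcode had 9331.5 UMIs in late KIC, 7592 in late KPfC, 1957.5 in late KPC, 1776 in early KIC and 4224.5 in normal pancreas, so the early KIC and late KPC libraries were the shallowest per barcode. Between any pair of libraries, 1 to 17 kept barcodes had the same sequence, and 2 members were among them, each shared with a non-member. Late KIC held 344 kept barcodes with Xist and no UMI of the Y-linked genes and 272 with the reverse, and normal pancreas 658 and 123. The other libraries were one-sided: 0 and 1734 in late KPfC, 737 and 0 in late KPC, and 2925 and 1 in early KIC. The design text names a single mouse for each group, and how many animals gave the mixed libraries was not tested.

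The start regions of genes that mark endothelium are shown first, since the results turn on such genes being high together. ETS transcription factors, among them Erg, bind a GGAA core and take part in endothelial gene regulation. The windows run from 250 bases before to 50 after the RefSeq transcript start on GRCm38.p6, 5′ to 3′ on the strand of the gene, with every CNGGAAG on either strand in capitals. Flt1 and Robo4, genes of vessel endothelium, and Egfl7, a gene of the rule, stood far above the other barcodes of early KIC, and Cldn5 is a junction gene nearly absent from the early KIC members. The windows are chr2:26583615-26583914 on the plus strand for the second listed start of Egfl7, chr5:147725962-147726261 on the minus strand for Flt1, chr9:37401722-37402021 on the plus strand for Robo4 and chr16:18776597-18776896 on the plus strand for Cldn5.
Egfl7: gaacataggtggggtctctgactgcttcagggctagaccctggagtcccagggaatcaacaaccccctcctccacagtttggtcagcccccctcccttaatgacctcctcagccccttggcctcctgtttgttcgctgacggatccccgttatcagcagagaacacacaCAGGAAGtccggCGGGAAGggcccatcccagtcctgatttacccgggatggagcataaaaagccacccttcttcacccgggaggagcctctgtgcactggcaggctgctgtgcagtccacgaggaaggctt
Flt1: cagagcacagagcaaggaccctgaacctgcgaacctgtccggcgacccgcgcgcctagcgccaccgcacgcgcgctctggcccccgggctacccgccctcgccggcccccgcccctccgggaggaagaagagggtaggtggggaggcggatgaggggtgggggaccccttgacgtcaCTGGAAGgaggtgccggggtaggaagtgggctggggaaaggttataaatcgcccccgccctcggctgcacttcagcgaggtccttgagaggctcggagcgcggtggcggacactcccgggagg
Robo4: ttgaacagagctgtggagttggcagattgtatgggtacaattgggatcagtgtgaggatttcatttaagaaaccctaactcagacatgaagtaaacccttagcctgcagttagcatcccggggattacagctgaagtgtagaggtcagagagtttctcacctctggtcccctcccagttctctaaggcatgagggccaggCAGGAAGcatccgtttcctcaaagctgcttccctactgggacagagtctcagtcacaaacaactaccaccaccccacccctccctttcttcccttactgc
Cldn5: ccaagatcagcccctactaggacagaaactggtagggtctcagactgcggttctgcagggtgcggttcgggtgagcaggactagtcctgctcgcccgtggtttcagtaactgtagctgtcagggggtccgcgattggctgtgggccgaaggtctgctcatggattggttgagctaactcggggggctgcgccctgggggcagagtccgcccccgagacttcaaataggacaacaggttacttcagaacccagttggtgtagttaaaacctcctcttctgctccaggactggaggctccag
The Egfl7 window shown held 2 matches, those of Flt1 and Robo4 held 1 each, and that of Cldn5 held 0. The first listed start of Egfl7, not shown, held 2 matches and its start 3 held 0. Of 46 endothelial genes on the lists used here, 28 had an entry, and 18 of their 38 starts (47.4%) held at least 1 match. Over all 32851 windows of 27025 genes the share was 31.9%. A match is a stretch of letters and not a bound site.

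The share of endothelial barcodes was highest in early KIC, and lowest in late KPfC and normal pancreas, whose intervals overlapped. It was 0.718% in late KIC (6 of 836 kept barcodes, exact binomial interval 0.264 to 1.56), 0.136% in late KPfC (4 of 2933, 0.0372 to 0.349) and 1.64% in late KPC (17 of 1034, 0.961 to 2.62). Early KIC reached 3.77% (133 of 3529, 3.16 to 4.45), against 0.251% in normal pancreas (6 of 2386, 0.0923 to 0.547). All 3 late tumour libraries lay below early KIC, and the interval of early KIC overlapped none of the other 4.

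The ratio of shares was 15 for early KIC over normal pancreas (6.71 to 41.6) and 6.54 for late KPC over normal pancreas (2.46 to 20.3). Against early KIC the share was 5.25-fold lower in late KIC (2.35 to 14.6), 27.6-fold lower in late KPfC (10.5 to 103) and 2.29-fold lower in late KPC (1.38 to 4.05). Thinning every barcode to 1000 UMIs before applying the rule kept the order of the 5 libraries, with 0.478% in late KIC, 0.102% in late KPfC, 1.44% in late KPC, 3.26% in early KIC and 0.210% in normal pancreas, after 200 shallower barcodes of late KPC were left out. Without the limits on collagen and C1q genes the shares were 0.957%, 0.341%, 1.64%, 4.93% and 0.251% in the same order, so that normal pancreas and not late KPfC was lowest. The largest relative move was that of late KPfC, where 7 of the 13 barcodes that met the marker part had failed the collagen limit. These are shares of captured barcodes, not of the cells of the tissue.

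**Figure D1:**
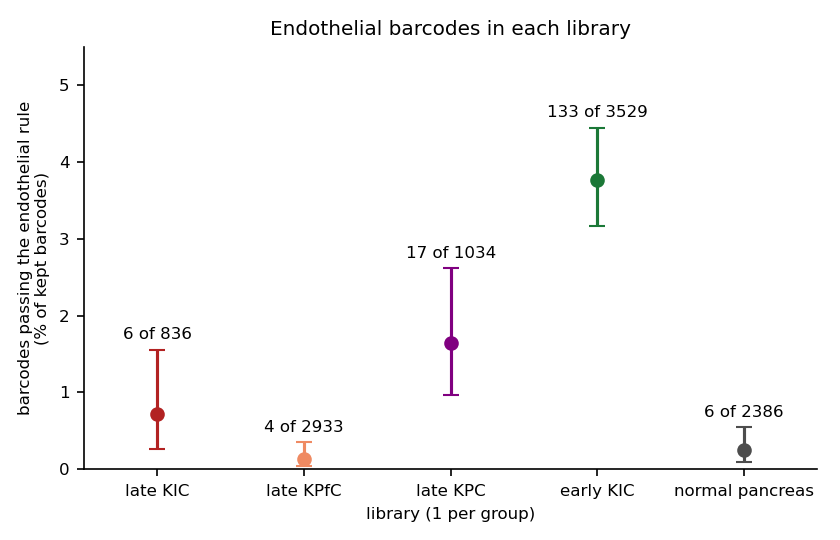
Share of kept barcodes that met the endothelial rule, in percent, in the 5 libraries; points are the shares, bars the exact 95% binomial intervals, and the counts stand beside each point. Early KIC (3.77%) lies above late KPC (1.64%), late KIC (0.718%), normal pancreas (0.251%) and late KPfC (0.136%).

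The 5 genes of the rule chose the members, and their values are given as a description. In early KIC members Plvap stood at 3815 CPM (a gene's UMIs divided by all UMIs of the summed barcodes, times 1000000; 1051 UMIs in 131 barcodes), against 79.3 CPM in the other kept barcodes of the library. Egfl7, a secreted protein of endothelium, stood at 1223 CPM (115 barcodes) against 25.4, and Pecam1, an adhesion molecule of endothelial contacts, at 868 CPM (101 barcodes) against 18.9. Kdr, the main VEGF receptor, stood at 846 CPM (105 barcodes) against 19.3, and Cdh5, the cadherin of endothelial junctions, at 443 CPM (71 barcodes) against 11.6. On GRCm38 these genes lie at chr8:71497765-71511752 (Plvap), chr2:26580014-26593120 (Egfl7), chr11:106654217-106750628 (Pecam1), chr5:75932827-75978458 (Kdr) and chr8:104101625-104144511 (Cdh5).

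Most early KIC members lay far inside the threshold: 119 of 133 had 5 or more UMIs of the rule genes, 9 had 3 and 5 had 4, with a median of 13 and a highest value of 48, and 40 barcodes showed all 5 genes. A list of 41 other endothelial genes, none of them in the rule, summed to 158 UMIs per 10000 in the 119 members with 5 or more rule UMIs and to 21.2 in the 14 members with 3 or 4. Just outside, it summed to 4.90 in 18 barcodes with 2 rule UMIs that met every other limit, 2.84 in 113 with 1 and 3.75 in 636 with none. The summed value of the edge members thus lay between those of the other members and of the barcodes outside. That sum is weighted by depth. Among the 14 were barcodes of 16061, 10848 and 6530 UMIs, of which 61.2%, 80.2% and 63.1% came from acinar, endocrine and haemoglobin genes. It therefore does not describe each edge member, though all 14 held at least 1 UMI of the list. A further 72 barcodes passed the marker part and failed another limit, and their list sum was 51.3 per 10000.

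The markers set beside the label were those of endothelium. At least 2 UMIs of the 41-gene list, from 1 or more genes, were held by 131 of 133 early KIC members. All members of the other 4 libraries also held at least 2 such UMIs. Fibroblast markers (9 genes) summed to 4.36 UMIs per 10000 in early KIC members against 77.4 in the other barcodes, macrophage markers (10 genes) to 12.6 against 93.1, and epithelial markers (8 genes) to 4.83 against 35 in the others. All 4 of these cell types, lymphocytes included, have a gene that the rule limits among their markers, so these values are in part fixed by it. Without the genes of the rule, fibroblast markers (6 genes) summed to 1.63 against 21.1, macrophage markers (7) to 11.7 against 77.6 and epithelial markers (7) to 4.83 against 33.7. Of 7 lymphocyte markers outside the rule, 6 were at 0 in the members and the list gave 1 UMI, though it was also low in the others, at 0.183 per 10000.

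RNA of acinar cells, the enzyme-secreting cells of the pancreas, was present in the early KIC members. The 13 acinar genes held 16.2% of the summed member UMIs (median barcode 3.18%, range 1.05 to 62.6), against 9.97% in the other kept barcodes. Islet hormone genes held 4.24% in members against 9.77% in the others, and haemoglobin genes 1.17% against 0.336%. In 33 of 133 members these 3 groups together exceeded 10% of UMIs, and those 33 held 89.4% of all such UMIs. Among them were the deepest members, with 22164, 16061, 10848 and 6530 UMIs. These 3 groups made up 61.4%, 61.2%, 80.2% and 63.1% of their UMIs, and they held only 5, 4, 3 and 3 rule UMIs. Whether they were endothelial cells was not tested, and they are part of the early KIC sums. The genes with the highest CPM in the members, on a scale that takes no account of transcript length, were Malat1, a nuclear non-coding RNA, followed by Cela2a, Prss2, Ctrb1, Clps, Try5 and Cela1 (digestive enzymes and their cofactor), Ins1 and Ins2 (insulin), and Igfbp7, a secreted protein abundant in vessels.

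Within early KIC, genes of blood vessels stood furthest above the other barcodes in the members. Of 10248 genes with at least 20 UMIs over both sums, 1760 (17.2%) were at least 2-fold higher in members and 1684 (16.4%) at least 2-fold lower. At 4-fold the counts were 547 (5.34%) and 585 (5.71%). Without the 33 members rich in acinar, endocrine or haemoglobin RNA they were 939 and 370, and with TMM scaling 429 and 762, so the split between higher and lower depends on how the sums are scaled. The median of all genes was 0.07 on the log2 scale, 0.50 without those 33 members and -0.16 with TMM scaling. Against that background, 32 of the 35 measured genes of the other-endothelial list (41 listed) were at least 2-fold higher and 0 lower; their median log2 ratio was 4.53.

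The genes furthest above the other barcodes, among those with at least 50 member UMIs, were led by Esm1, a proteoglycan of growing vessels, at 225 CPM against 2.37 (95.1-fold, 56.1 to 168). Thrsp, a regulator of lipid synthesis, followed at 472 CPM against 8.09 (58.3-fold, 43.0 to 79.8). Ptprb, a phosphatase that restrains the receptor Tek, stood at 432 CPM against 7.84 (55.1-fold), and Flt1, a VEGF receptor that also binds VEGF as a decoy, at 1223 CPM against 23.3 (52.5-fold, 43.8 to 63.2). The other genes of the top 20 outside the rule ranged from 40.0-fold for Esam, a junction adhesion molecule, to 49.3-fold for Emcn, an endothelial sialomucin. They were Adgrf5 and Adgrl4 (adhesion receptors), Gpihbp1, Icam2, Rbp7, Mmrn2, Cd300lg, Fabp4, Aqp1 and Col13a1. Most of these are genes of the vessel surface, its junctions or its lipid handling.

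Capillary genes were high as a group: 13 of the 14 measured of 15 listed were higher by 2-fold or more and 1 was lower (median log2 ratio 5.20). The list includes Kdr, a gene of the rule. Fabp4, a fatty acid carrier of capillary endothelium, stood at 3147 CPM against 77.4 (40.6-fold, 36.6 to 45.1) and was seen in 116 of 133 members. Rgcc, a cell cycle regulator found in capillaries, stood at 1891 CPM against 63.4 (29.8-fold, 26.4 to 33.8) in 114 members. Gpihbp1, which carries lipoprotein lipase across the capillary wall, stood at 853 CPM against 17.9 (47.6-fold, 38.5 to 59.0), while Lpl, the lipase itself, gave only 4 UMIs in members, 14.5 CPM against 443. The carrier and the enzyme it carries were thus on opposite sides, Lpl 30.5-fold lower in members. Car4, a carbonic anhydrase of the capillary surface, stood at 505 CPM against 14.9, and Cd36, a fatty acid receptor, at 755 against 55.7. The lipid list as a whole had 8 of 12 measured genes higher and 1 lower (15 listed, median 3.27), with Scarb1, the receptor for high-density lipoprotein, 21.7-fold higher. Rbp7, a retinol-binding protein of endothelium that is on no list, stood at 2432 CPM against 53.2.

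Of the fenestration and caveola genes, all 7 in the table were at least 2-fold higher (10 listed, median 3.40). They include Plvap of the rule, and Cav1, the coat protein of caveolae, at 414 CPM against 39.5 (10.5-fold). Plpp1 (846 against 49.7 CPM) and Plpp3 (915 against 274 CPM), phosphatases that degrade lysophospholipids, were 17-fold and 3.34-fold higher.

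The VEGF and angiopoietin system showed receptors in the members and the ligand outside them. Of 11 measured genes (16 listed), 8 were higher by 2-fold or more and 2 lower (median 3.10). Nrp1, a co-receptor of VEGF, stood at 933 CPM against 100 (9.31-fold, 8.06 to 10.7), and Tie1, a receptor of the angiopoietin system, was 30.2-fold higher. Vegfa itself gave 4 UMIs in members, 14.5 CPM against 60.4 in the other barcodes. Angpt2, the angiopoietin ligand that endothelium stores, was seen with 10 UMIs in members and 4 in all other barcodes.

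Genes linked to tip cells and growing vessels were higher for 13 of 19 measured members of the list and lower for 3 (20 listed, median 2.06), with Plvap of the rule among them. Besides Esm1, Igfbp3, a binding protein of insulin-like growth factors, stood at 2011 CPM against 83.7 (24.0-fold). Apln, a ligand made by tip cells, stood at 47.2 CPM (13 UMIs) and its receptor Aplnr at 79.9 CPM (22 UMIs), 42.1-fold and 37.7-fold higher. The wider list of apelin, adrenomedullin and sphingosine phosphate genes had 9 of 12 higher and 1 lower (median 2.30). The gene lower was Adm, the adrenomedullin ligand, at 21.8 CPM against 78.6, while its receptor parts Calcrl, Ramp2 and Ramp3 were 7.90-fold, 4.22-fold and 8.77-fold higher. Col4a1 (1114 against 366 CPM) and Col4a2 (897 against 214 CPM), collagens of the vessel basement membrane, were 3.04-fold and 4.18-fold higher.

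Arterial and venous genes were both represented. Of 13 measured arterial genes (15 listed), 8 were higher by 2-fold or more and 2 lower (median 2.99), and of 8 measured venous genes (12 listed) 5 were higher and 1 lower (2.15). Many rested on few UMIs: with at least 50 UMIs over both sums, 1 arterial and 3 venous genes were counted as higher. Sox17, a transcription factor of arteries, had 25 UMIs in 23 members and 5 in all other barcodes (146-fold, 54.8 to 488). Among Notch genes, 6 of 10 measured were higher and 2 lower (14 listed, median 2.85, 1 higher at 50 UMIs), with the receptor Notch4 at 98.0 CPM against 2.37 and the ligand Dll4 at 54.4 against 2.12. The venous genes Ackr1, Selp and Vcam1, a chemokine-binding receptor and adhesion molecules for leukocytes, gave 0 UMIs in the 133 members.

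Growth factor signalling and flow-related genes stood lower in the order. TGF and BMP genes were higher for 7 of 13 and lower for 1 (14 listed, median 1.55). Eng, a co-receptor of this family, stood at 730 CPM against 54.9 (13.3-fold), and Id1, a target of BMP signals, at 319 against 9.84 (32.5-fold). Among flow-responsive and endothelial transcription factors, 6 of 13 were higher and 1 lower (16 listed, median 0.95), with Klf2, induced by flow in endothelium, at 820 CPM against 217, and Klf4 at 250 against 274. Of the vasoactive and clotting genes, 5 of 13 were higher and 3 lower (16 listed, median 0.64). Nos3, the endothelial nitric oxide synthase, stood at 47.2 CPM against 1.62 (13 UMIs, 29.2-fold, 12.5 to 68.3).

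The immune surface of the members was partial. Class I antigen presentation genes were at least 2-fold higher for 4 of 11 and lower for none (median 0.93; 2 higher with TMM scaling and 8 without the members rich in secretory RNA). H2-D1, a class I heavy chain, stood at 2414 CPM against 1119 (2.16-fold, 1.99 to 2.33). Interferon-linked genes were higher for 8 of 14 and lower for none (median 1.38), with Ly6e at 1662 CPM against 487, Ly6a at 1608 against 559 and Iigp1, an interferon-induced GTPase, at 149 against 12.1. Class II genes went the other way, with 6 of 7 lower (median -1.99), and Cd74, the class II chaperone, at 1274 CPM against 5057. Even this level rested on few cells: 5 of 133 members held 80.9% of the 698 class II UMIs and 61 had none. Chemokine and cytokine genes were lower for 10 of 14 and higher for 2 (17 listed, median -1.98). The exceptions were Cxcl12, a chemokine of stroma and endothelium, at 646 CPM against 129, and Cx3cl1, a membrane-bound chemokine of endothelium, at 47.2 against 2.99. H2-D1 and the Ly6 genes belong to families of near-identical copies, and how the counting shared reads between copies is not known here.

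Several lists stayed near or below the background. Cell cycle genes were higher for 0 of 16 and lower for 1 (18 listed, median 0.41), though 7 were higher once the 33 members rich in secretory RNA were left out. Mki67, a proliferation marker, had 3 UMIs in members. Immediate early and stress genes were higher for 1 of 16 and lower for 0, glycolysis genes for 1 and 4 of 16, and integrins for 3 and 3 of 10 (11 listed). Lymphatic genes were lower for all 5 measured (9 listed, median -2.06).

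Setting the members against single cell types of the same library shows which of these differences depend on the barcodes they are set against. Against 1333 barcodes passing a fibroblast gate (Col1a1, Col3a1 and Dcn at 30 or more UMIs per 10000, C1q genes under 10, and 0 of Ptprc and Epcam), 1081 of 8663 genes (12.5%) were at least 2-fold higher in members and 2090 (24.1%) lower, and at 4-fold 378 (4.36%) and 730 (8.43%). Against 653 passing a macrophage gate (C1q genes at 10 or more, the collagen genes under 30, and 0 of Epcam), 1215 of 6003 (20.2%) were higher and 1352 (22.5%) lower, and at 4-fold 484 (8.06%) and 657 (10.9%). Capillary genes were higher against both, for 13 of 14 genes (median log2 ratio 5.18) and 12 of 14 (4.76). Basement membrane genes turned with the barcodes set beside them: 1 of 14 was higher and 6 lower against the fibroblast gate (median -0.60), and 11 of 12 were higher and 1 lower against the macrophage gate (3.79). Sparc, a matrix protein, stood at 3307 CPM in members and 6069 in the fibroblast gate. Class II genes did so as well, with 5 of 6 higher against the fibroblast gate (1.45) and 0 of 7 higher and 7 lower against the macrophage gate (-3.76).

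**Figure D2:**
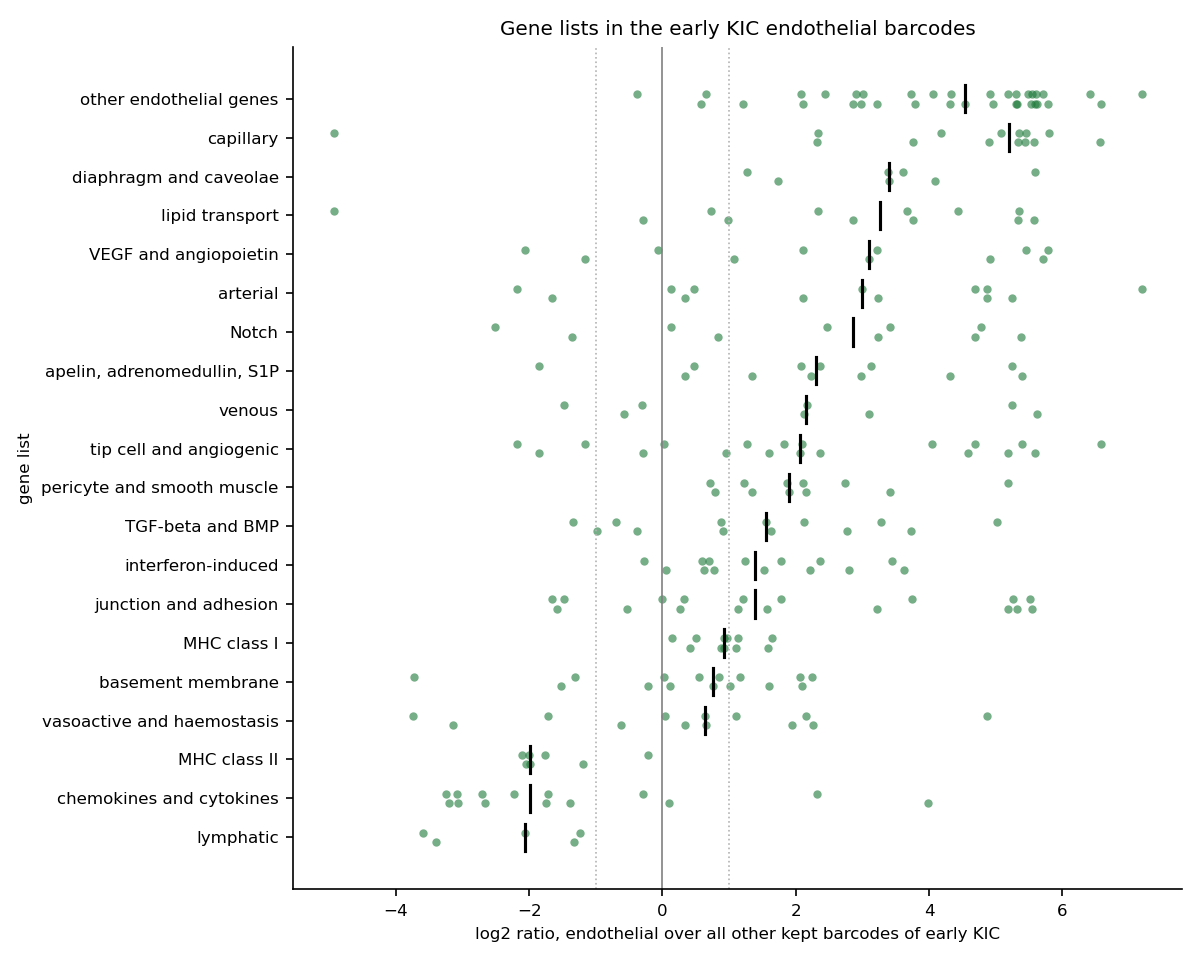
Log2 ratio of CPM in the 133 early KIC members over the other kept barcodes of the library, for 20 gene lists; each dot is a gene with at least 20 UMIs over both sums, black bars are list medians, and dotted lines mark 2-fold. Capillary (median 5.20) and other endothelial genes (4.53) lie furthest to the right, and chemokine (-1.98) and class II genes (-1.99) to the left.

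Among the 133 early KIC members, genes of several vessel types were seen. At least 2 capillary genes were seen in 126 members and at least 2 tip cell genes in 126, at least 2 arterial genes in 24, venous in 33 and lymphatic in 3. All 24 with arterial genes and 32 of the 33 with venous genes also had at least 2 capillary genes, which nearly all members had, so this overlap does not show whether the types are separate barcodes. Pairs of single genes, some of those counted, are given with the number of barcodes that would hold both if they were independent. Gja4, a connexin of arteries, and Sema3g, a semaphorin of arteries, were seen in 12 and 11 members and together in 5 (0.992 if independent). Sox17, seen in 23, was together with each of them in 5 (2.08 and 1.90). Gja4 and Aplnr, a receptor seen in 19 members, were together in 0, and Sox17 and the capillary gene Car4, seen in 60, in 6. At a median of 1495 UMIs per member (1160 to 22164), a gene of low level is seen in few barcodes, so these counts are limited by depth.

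The 25 members in which Esm1 was seen were compared with the 108 in which it was not, as a description of genes seen together. Plvap stood at 54.0 UMIs per 10000 with Esm1 and 35.1 without, Kdr at 14.5 and 7.28, Igfbp3 at 36.0 and 17.0, and Rgcc at 31.0 and 16.6. Fabp4 went the other way, at 19.4 and 33.8, and Gpihbp1 stood at 8.71 and 8.50. The pericyte gene Rgs5 had a higher sum where Esm1 was seen, at 13.6 against 2.56. Its 61 UMIs there were in only 5 of the 25 barcodes, against 4.70 if the 2 genes were seen independently. Pdgfb, of the tip cell list, stood at 0.447 and 0.477. Among the 100 members with at most 10% acinar, endocrine and haemoglobin RNA, 22 with Esm1 and 78 without, Plvap stood close together at 56.5 and 53.3, Col4a1 at 15.4 and 16.4 and Apln at 0.490 and 0.637. Kdr (14.7 and 10.7) and Igfbp3 (37.9 and 25.2) stayed higher with Esm1, and Fabp4 (20.3 and 52.9) and Gpihbp1 (8.32 and 12.6) lower. Rgs5 stood at 14.9 and 4.06, the first again from 61 UMIs. Median depths in that set were 1585 and 1455 UMIs.

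Clustering the members gave 3 clusters of 88, 29 and 16 barcodes, which are given by their leading genes and carry no cell type name. The cluster of 88 was led by Gcg, Lgals9, Ins1, Ins2, H2-Ab1 and Cd74, that is, by islet hormone and class II genes and a galectin. Its deepest barcode had 10848 UMIs, 78.8% of them from islet hormone genes. The median early KIC member held 0.500% of such UMIs and 3 members exceeded 10%, so the hormone lead rested on few barcodes. The cluster of 29 was led by Amy2a2, Gp2, Cel and Cela2a, genes of digestive enzymes and zymogen granules, and held 27 of the 33 members in which acinar, endocrine and haemoglobin RNA exceeded 10%. The cluster of 16 was led by Myl9, Ndufa4l2, Tagln and Mgp and included Rgs5 and Higd1b, genes of pericytes and smooth muscle, the cells that wrap vessels. At a finer resolution of 1.0 there were 7 clusters, and without acinar, endocrine and haemoglobin genes again 3, of 86, 35 and 12.

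In the 33 members over 10% of acinar, endocrine and haemoglobin RNA, endothelial genes had lower CPM than in the other 100. Plvap stood at 1385 CPM against 5407, Fabp4 at 1101 against 4488, Egfl7 at 422 against 1748 and Flt1 at 339 against 1802. These levels are shares of a total that includes the other RNA.

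Pericyte RNA was held by few members. Of 209 UMIs of the 12 pericyte and smooth muscle genes, 185 were in 15 members with at least 2 such genes, and 33 members had any. Rgs5 gave 120 UMIs in 25 members, 436 CPM against 65.4 in the other barcodes. The list had 9 of 11 measured genes at least 2-fold higher (median 1.90). In the other libraries the members held 2 (late KIC), 2 (late KPfC), 1 (late KPC) and 3 (normal pancreas) UMIs of these genes. Whether a barcode with both sets of genes held 1 or 2 cells was not tested.

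**Figure D3:**
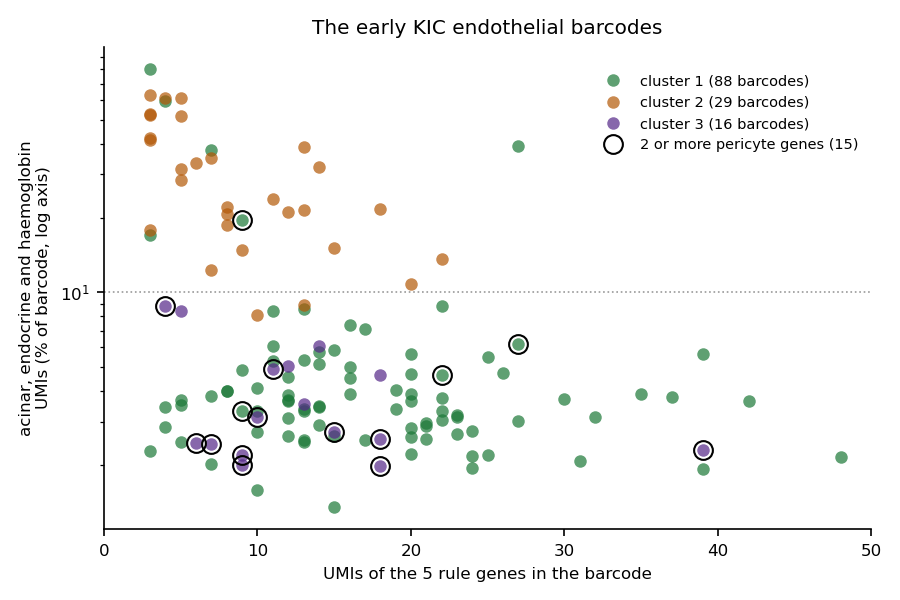
Each point is 1 of the 133 early KIC members; the horizontal axis is its UMIs of the 5 rule genes, the vertical axis the percent of its UMIs from acinar, endocrine and haemoglobin genes, colours are the 3 clusters and rings mark members with at least 2 pericyte genes. The 33 members above the dotted line at 10% are mostly from the cluster of 29, and the 15 ringed members mostly from the cluster of 16.

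The other libraries held too few members for a summed comparison except late KPC, so the barcodes are described in turn. In late KIC, 1 of 6 members held 74872 UMIs, 68.8% of all member UMIs of that library, with 8 UMIs of the rule genes (Pecam1 6, Egfl7 2), 397 of Krt18, 142 of Krt8 and 32 of mesothelial genes. Its markers set it apart from the other 5, so late KIC levels are given with and without it; with 5 members the share was 0.598%. Barcodes 4 and 5 had 20 and 26 UMIs of Selp and 6 and 7 of Vwf, the clotting factor stored in endothelium, and barcode 4 alone had 23 of Ackr1. Barcode 1 had 12 UMIs of Flt1 and 36 of Col4a1, and barcode 2 had 13 of Cldn5, a tight junction protein of vessels. Every one of the 6 members held UMIs of at least 3 venous genes, with 128 and 60 venous UMIs in barcodes 4 and 5 and 7 to 29 in the other 4.

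In late KPfC, 2 of 4 members carried Prox1, the transcription factor of lymphatic identity. Barcode 3 had 3 UMIs of it with 15 of Lyve1 and 12 of Mmrn1, and barcode 1 had 5 with 0 of Lyve1 and 1 of Mmrn1. Barcode 2 had 6 UMIs of Gja5, a connexin of arteries, and 9 of Plvap. Barcode 4 had 11 of Flt1, 22 of Col4a1, 7 of Kdr and 4 of Esm1.

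In normal pancreas, barcode 2 had 29 UMIs of Lyve1, 43 of Mmrn1 and 5 of Prox1, with 0 of Plvap. Barcodes 1, 5 and 6 had 25, 8 and 17 UMIs of Plvap, and barcodes 1 and 6 had 14 and 8 of Gpihbp1. Barcodes 1 and 5 had 56 and 52 UMIs of Fabp4, and 7 and 9 of Rgcc. Barcode 3 had 25 UMIs of Cldn5 and 24 of Stab2, a scavenger receptor of sinusoidal and lymphatic endothelium. Lymphatic genes thus appeared in 2 of the smallest sets: the list summed to 35.2 UMIs per 10000 in late KPfC members (69 UMIs) and 48.8 in normal pancreas members (148 UMIs), against 0.368 in late KIC (0.590 without its deepest barcode), 0.505 in late KPC and 0.653 in early KIC. Of 8 lymphatic genes in the table, 6 were at 0 in late KIC and late KPC members, 1 in early KIC members, and 0 in late KPfC and normal pancreas members.

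Across libraries, the summed Cldn5 level of the early KIC members lay below those of the other 4. It stood at 239 CPM in late KIC (737 without its deepest barcode), 1328 in late KPfC, 320 in late KPC (193 to 499), 7.26 in early KIC (2 UMIs, 0.879 to 26.2) and 1749 in normal pancreas (1310 to 2287). Only 2 of 133 early KIC members held a UMI, against 6 of 17 in late KPC and 4 of 6 in normal pancreas. In late KPfC, barcodes 1 and 3, which carried Prox1, held 14 and 9 UMIs, and barcodes 2 and 4 held 0 and 3. In normal pancreas, barcodes 2 and 3 with Lyve1 or Stab2 held 17 and 25, and barcodes 4 and 6 held 4 and 7. Barcodes 1 and 5, those with most Fabp4, held 0. Late KPC members held no Prox1. How far the difference follows from the vessel types in each library was not tested. The early KIC interval overlapped none of the others, although the members of that library had the largest UMI sum (275491, against 108786 in late KIC, 19581 in late KPfC, 59409 in late KPC and 30307 in normal pancreas). The cause of the low early KIC level was not tested.

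For several other genes the summed levels of the late tumours stood on 1 side of early KIC and normal pancreas. These are point values, with an interval given only for Vwf, and intervals of the small sets are wide. Lrg1, a venous gene that modifies TGF signalling, stood at 689 CPM in late KIC, 1532 in late KPfC, 1010 in late KPC, 116 in early KIC and 396 in normal pancreas. Vwf stood at 165, 409, 101, 10.9 and 0 CPM in the same order, but with 0 UMIs the interval of normal pancreas reached 122 CPM, above the level of late KPC. Rgcc ran the other way, at 18.4, 102, 151, 1891 and 528 CPM, and Car4 at 0, 0, 16.8, 505 and 231 CPM. Thrsp was at 0 in all 3 late libraries, 472 CPM in early KIC and 363 in normal pancreas. Fabp4 and Gpihbp1 did not follow this split: they were low in late KIC (64.3 and 9.19 CPM) and late KPfC (409 and 51.1), and stood at 3972 and 791 in late KPC, 3147 and 853 in early KIC, and 3794 and 924 in normal pancreas. The levels of late KIC, late KPfC and normal pancreas rest on 6, 4 and 6 barcodes. Without its deepest barcode, late KIC stood at 2182 CPM for Lrg1, 531 for Vwf, 29.5 for Rgcc, 0 for Car4, 206 for Fabp4 and 29.5 for Gpihbp1.

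**Figure D4:**
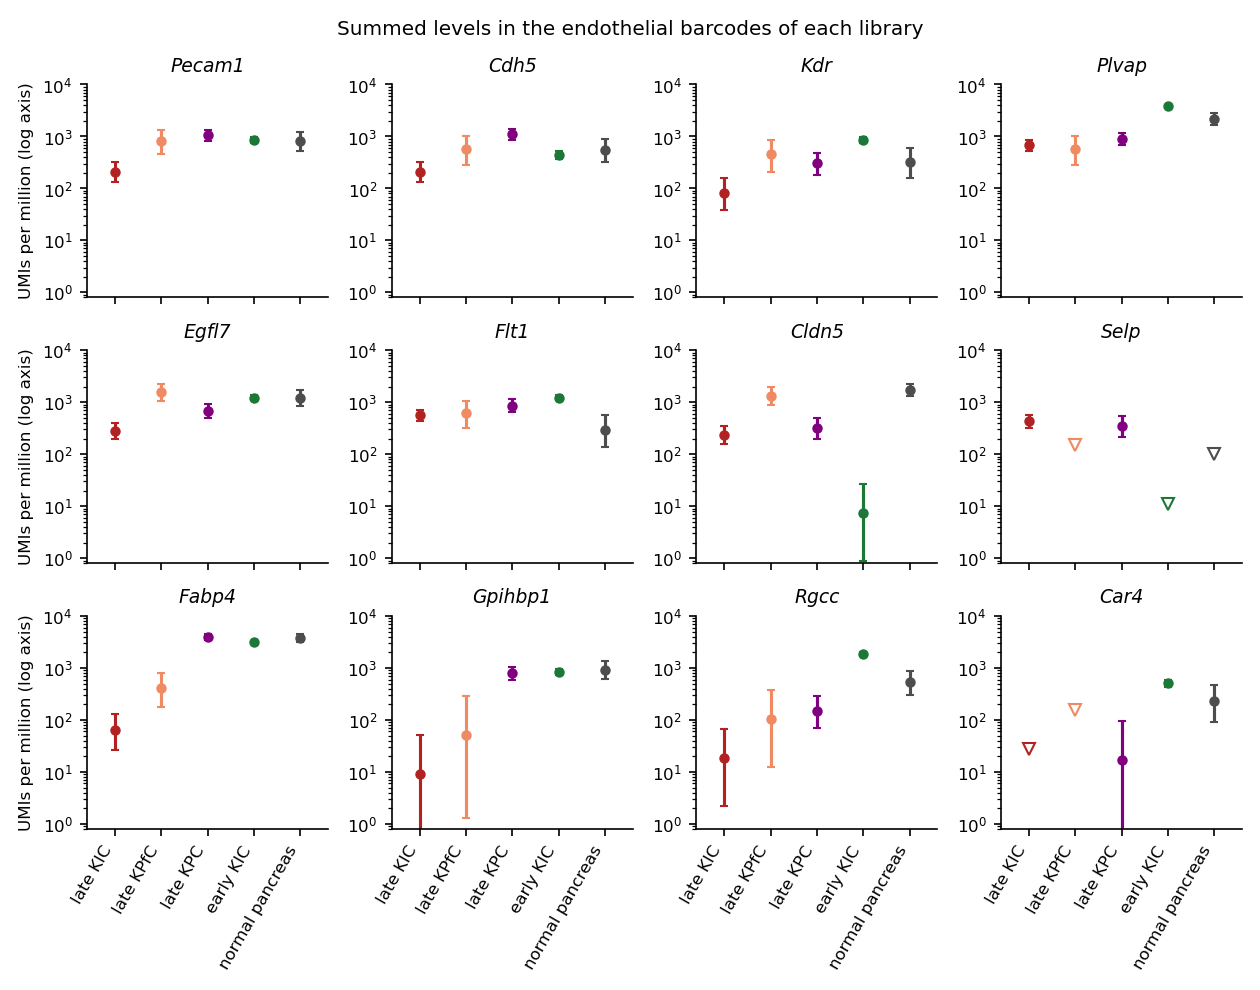
CPM of 12 genes in the summed members of the 5 libraries, on a log axis, with exact 95% Poisson intervals; open triangles mark 0 UMIs and are drawn at the level of 3 counts. Cldn5 is lowest in early KIC (7.26) and Rgcc, Car4 and Plvap are highest there.

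Late KPC, with 17 members, was set against the 133 of early KIC. The groups differ in model and in age and each is a single preparation, and these cannot be told apart. Members had a median of 3198 UMIs in late KPC (956 to 9582) and 1495 in early KIC. Of 2179 genes with at least 20 UMIs over both sums, 544 (25.0%) were at least 2-fold higher in late KPC and 387 (17.8%) at least 2-fold lower, and at 4-fold 121 (5.55%) and 180 (8.26%). With TMM scaling the counts were 224 and 688, without the members rich in secretory RNA 311 and 439, and with the mean over barcodes 414 and 507. The median of all genes was 0.21 on the log2 scale, -0.44 with TMM scaling and -0.09 without those members. Directions are therefore read mainly from genes that lie far from 0 under each scaling.

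Single genes of junctions, leukocyte adhesion and the vessel wall were higher in late KPC, while most measured genes of the 2 lists they belong to lay within 2-fold. Junction and adhesion genes were higher for 6 of 15 and lower for 1, but for 3 and 4 with TMM scaling, and basement membrane genes were higher for 3 of 13 and lower for 1, beside 25.0% of all genes higher. Selp and Col18a1 below had 0 UMIs in early KIC and reached the minimum of 20 UMIs through late KPC alone. Cldn5 stood at 19 UMIs in 6 of 17 barcodes against 2 UMIs in 133 (44.1-fold, 10.6 to 390, with a log2 ratio of 4.81 to 6.26 over the alternatives). Selp, the adhesion molecule that slows leukocytes, had 21 UMIs in 5 barcodes against 0 in early KIC. It was 32.5-fold higher when early KIC is set to 3 counts over its sum, with a lower interval bound of 24.1-fold. Late KPC barcode 5, with 623 genes and only 3 rule UMIs, held 6 of these UMIs. Without that barcode Selp would lie under the minimum of 20. Selp is also a gene of platelets, whose 5 markers gave 5 UMIs in late KPC, all in 1 member, and that member held 0 UMIs of Selp. Vcam1, another such adhesion molecule, had 15 UMIs in 4 barcodes against 0, which is under the minimum of 20. Icam1 was 4.86-fold higher (2.55 to 9.29). Col18a1, the basement membrane collagen that gives endostatin, had 21 UMIs in 7 barcodes against 0. It was 32.5-fold higher with early KIC set to 3 counts, with a lower interval bound of 24.1-fold. Edn1, the vasoconstrictor endothelin, had 22 UMIs in 7 barcodes against 7 (14.6-fold, 6.01 to 40.4). Lrg1 was seen in 13 of 17 barcodes with 60 UMIs, against 32 UMIs in early KIC (8.69-fold, 5.57 to 13.8).

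Other genes among those furthest up by the bound of the interval were Hmox1, the haem-degrading oxygenase (13.0-fold, 7.67 to 22.8), the non-coding RNA Snhg9 (20 UMIs against 2, 46.4-fold, 11.3 to 409) and Rnf19b, a ubiquitin ligase (17 UMIs against 3, 26.3-fold, 7.60 to 140). Hmox1 was seen in 13 of 17 barcodes. Haemoglobin RNA held 3.56% of late KPC member UMIs and 1.17% of early KIC member UMIs, with 1 late KPC member at 65.3%. Its part in the Hmox1 value was not tested.

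Some of these differences were also present outside the members. In the other barcodes Cldn5 had 6 UMIs in late KPC and 1 in early KIC (16.8-fold, 2.04 to 774). In the other barcodes of late KPC over those of early KIC, Selp was 41.4-fold higher (15.3 to 157), Lrg1 8.26-fold and Hmox1 4.72-fold. For Ctla2a, a protease inhibitor, the ratio was 4.93 in members (3.77 to 6.46) and 8.50 in the other barcodes. Rgcc went opposite ways, 12.5-fold lower in late KPC members (6.53 to 27.5) and 5.62-fold higher in the other barcodes (5.05 to 6.26). Thrsp and Rbp7 were lower in both.

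Capillary genes were not higher for any of the 13 measured and at least 2-fold lower for 8, with a median log2 ratio of -1.18 and 6 to 11 lower over the alternatives. Kdr of the rule is on this list. Rgcc stood at 151 CPM (9 UMIs) against 1891 in early KIC, Car4 had 1 UMI against 139 (lower by 5.29-fold to 1192-fold), and Btnl9, a butyrophilin of capillaries, was 9.49-fold lower (1.62 to 383). Cxcl12 was 3.20-fold lower and Cd300lg 3.70-fold lower. Fabp4 (1.26-fold, 1.09 to 1.46), Gpihbp1 (0.927, log2 range -1.71 to -0.10) and Cd36 (0.914) were near 1. Fabp4 and Cd36 changed side over the alternatives (log2 -1.24 to 0.68 and -1.50 to 0.11). Outside the list, Rbp7 was 6.88-fold lower (4.46 to 11.2) and Thrsp, at 0 in late KPC, at least 9.34-fold lower.

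Plvap, Kdr and Nrp1 were lower in late KPC, within lists that were mixed. VEGF and angiopoietin genes were lower for 3 of 7 and higher for 1 (median -0.51), and tip cell genes lower for 3 of 11 and higher for 2 (median 0.26). Plvap was 4.20-fold lower in late KPC (3.19 to 5.63, log2 -2.72 to -2.07 over the alternatives), Kdr 2.79-fold (1.73 to 4.79) and Nrp1 5.04-fold (2.77 to 10.2), while Flt1 was 1.42-fold lower. Plvap and Kdr are genes of the rule, which takes members that are high in at least some of the 5, so their levels are not free of it. Pecam1 (1.22-fold, 0.911 to 1.62) lay near 1, and Cdh5 was 2.47-fold higher (1.80 to 3.37, log2 0.25 to 1.37 over the alternatives). Of 7 fenestration and caveola genes, 3 were lower, 4 within 2-fold and 0 higher (5 lower with TMM scaling), with Plpp1 and Plpp3 6.28-fold and 4.53-fold lower. Ramp3, a receptor activity protein for adrenomedullin, had 1 UMI in late KPC against 83 (17.9-fold lower, 3.12 to 715), Eng was lower by 2.71-fold and Id3, a BMP target, by 5.41-fold. TGF and BMP genes were lower for 4 of 10 and higher for 0.

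Antigen presentation and interferon genes were lower in late KPC. Class I genes were at least 2-fold lower for 6 of 9 and higher for 0 (median -1.46; 8 lower with TMM scaling), and H2-D1 stood at 539 CPM against 2414, 4.48-fold lower (3.14 to 6.61). In thinned barcodes H2-D1 was seen in 31.25% of late KPC members and 88.0% of early KIC members. In the other barcodes it was 1.42-fold lower in late KPC. Interferon-linked genes were lower for 6 of 7 and higher for 0 (median -1.56), with Ly6a 4.15-fold and Ly6e 2.41-fold lower. Ly6c1, an endothelial surface protein of the same family, was 3.35-fold lower. B2m, the light chain of class I, was 1.33-fold lower. Class II genes were lower for 4 of 4 (median -3.25), and the early KIC level rested mostly on the 5 barcodes named above.

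Lists with both directions are given by their counts. Beside 25.0% of all genes higher and 17.8% lower, vasoactive and clotting genes were higher for 5 of 7 and lower for 1 (median 2.12; 0 higher with at least 50 UMIs), venous genes for 2 and 0 of 4 (1.84; 1 higher at 50 UMIs), arterial genes for 3 and 0 of 6 (0.96; 0 higher at 50 UMIs) and chemokines for 5 and 2 of 8 (1.18; 2 and 2 with TMM scaling). Of 35 other-endothelial genes, 11 were higher and 6 lower (median 0.53), and with TMM scaling 5 and 11, so no direction holds for that list. Of the basement membrane genes, Col4a1 was 2.18-fold higher (1.77 to 2.66, log2 0.15 to 1.22).

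Thinning every member to 1000 UMIs, which left out 1 of the 17 late KPC members, gave the same picture for the genes with the largest differences. Cldn5 was seen in 25.0% of late KPC members and 0% of early KIC members, Selp in 18.75% and 0%, and Ctla2a in 81.25% and 31.6%. Rgcc was seen in 25.0% and 78.9%, Rbp7 in 25.0% and 72.9%, Thrsp in 0% and 38.3%, and Plvap in 68.75% and 93.2%. Fabp4 (75.0% and 81.2%) and Gpihbp1 (43.75% and 54.9%) lay close together. In the fibroblast gate of early KIC, which should lack these genes, the shares were 4.13% for Rgcc, 3.15% for Rbp7, 0.300% for Thrsp, 7.13% for Plvap, 7.28% for Fabp4 and 0.0750% for Cldn5, so the early KIC member shares other than that of Cldn5 were above this background.

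The genes furthest down were those of acinar and islet cells. Cela2a, Prss2, Ins2, Ctrb1, Clps, Try5, Ins1 and Cela1 all gave 0 UMIs in late KPC members, with Cela2a at least 623-fold, Prss2 at least 510-fold and Ins2 at least 451-fold lower. The acinar and endocrine lists were lower for 13 of 13 and 6 of 6 measured genes. These differences were not confined to the members. In the other kept barcodes the acinar list summed to 0.614 UMIs per 10000 in late KPC against 997 in early KIC. The endocrine list summed to 0.0175 against 977 in the same barcodes. Rgs5, the pericyte gene, was at 0 in late KPC members and at least 8.63-fold lower, and it too reached the minimum through early KIC alone.

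**Figure D5:**
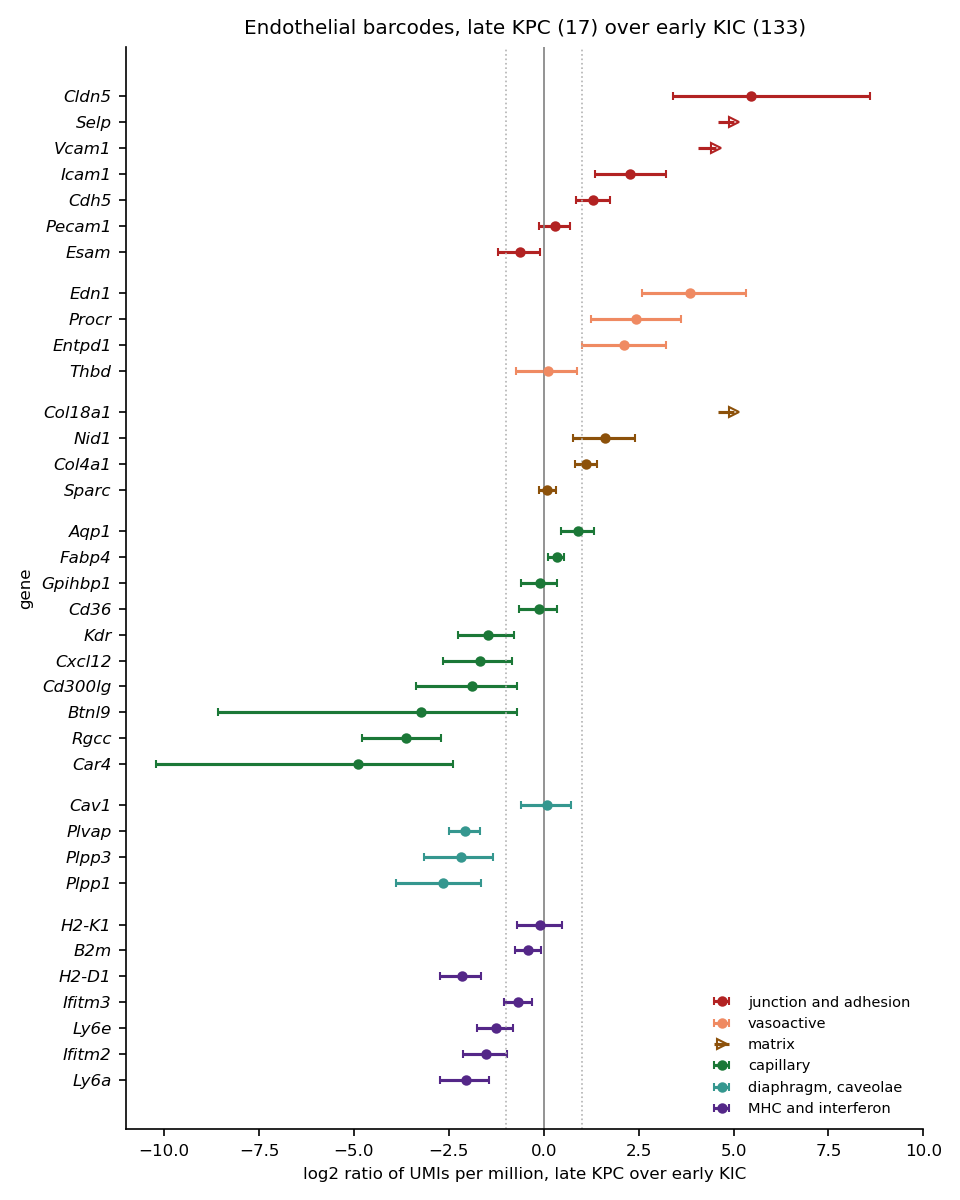
Log2 ratio of CPM in the 17 late KPC members over the 133 early KIC members for genes in 6 groups, with 95% counting intervals; open arrowheads mark genes at 0 in early KIC, drawn at their lower bound, and Vcam1 (15 UMIs) is shown although under the minimum of 20. Cldn5 and Selp lie to the right, Rgcc, Plvap and H2-D1 to the left, and Fabp4, Gpihbp1 and Pecam1 near 0.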

How the data were processed

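The files hold whole-number UMI counts per gene and barcode, which the authors deposited as 1 sparse matrix per library over 27998 genes. Per the submitters' processing notes these counts were made with Cell Ranger 2.1.1 on GRCm38. Neither the annotation release nor the strand setting is given in the sources used here. The 56 symbols that occur on more than 1 row were left out of the gene lists. No doublet caller was run, so doublets are to be taken as present.

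Barcodes with at least 200 genes and at most 20% mitochondrial UMIs were kept, and the rule was applied to their raw counts. UMIs were summed over members and divided by the sum to give CPM, with exact Poisson intervals for levels, exact Clopper-Pearson intervals for shares and exact binomial intervals for ratios, at 95%. Where 1 side had 0 UMIs, it was set to 3 counts over the group's sum and the ratio is given as a bound, and list medians include such bounds. These bounds leave out the counting error of the side that was seen. Ratios were read for genes with at least 20 UMIs over both sums and between libraries with at least 15 members each. With 1 library per group no test was run. Precision follows from the UMI sums given in the text.

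Early KIC members were clustered on 1000 variable genes, 15 components and 15 neighbours (Leiden, resolution 0.6). The 37 gene lists, the members and the alternatives were chosen with earlier results of these data known; 13 alternatives were listed at the outset and 6 were added after the data had been seen. Of 398 genes on the lists, 392 are in the table. The named genes are the rule genes, the 10 most abundant, the 20 furthest above the other barcodes with at least 50 member UMIs, the 8 furthest each way between libraries by the interval bound nearest 1, the 4 highest of each list and those whose role is described; some of these are not reported here. Genes outside this, chiefly those given for single barcodes, were named after their values were seen. The ratio step was tested on simulated data. Clustering used scanpy 1.11.5 with leidenalg 0.10.2 and igraph 0.11.9, intervals used scipy 1.17.1, figures used matplotlib 3.10.9, and all ran under Python 3.11.15 with pandas 2.3.3, numpy 2.4.6 and anndata 0.12.19. Promoter windows are from RefSeq.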

Additional observations from a re-analysis of the deposited data

How the results depend on the processing

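The share of endothelial barcodes in early KIC was 4.93% without the limits on collagen and C1q genes, beside 3.77%. Genes at least 4-fold higher in early KIC members than in other barcodes numbered 547, with 348 at a minimum of 50 UMIs over both sums, 1134 at 1 UMI and 939 without members over 10% acinar, endocrine and haemoglobin RNA, where those lower numbered 370 beside 585. Genes at least 2-fold higher in late KPC than in early KIC numbered 544, with 204 at 50 UMIs, 2749 at 1 UMI, 224 with TMM factors and 311 without those members. Genes lower numbered 387, with 158, 628 and 688 under the first 3 of these and 203 when the counting interval also had to exclude equality. Lists with a median log2 ratio of at least 1 numbered 3 in that comparison, and 1 with at least 5 rule UMIs per member and 1 with 50 UMIs over both sums. Clusters numbered 7 at resolution 1.0, beside 3. Minimums on UMIs act by changing which genes are counted, and for the others the cause was not tested. Of the values of single genes under the alternatives, 1066 stayed within their counting intervals and 161 moved, and of the counts per list 852 stayed within 1.5 times and 160 moved; no gene value of 2-fold or more changed sign. No library could be left out, since each group has 1. No paired analysis was possible because each group has 1 library and the labels carry no replicate numbers. The late KIC, late KPfC and normal pancreas members, 6, 4 and 6 barcodes, limit what can be said of those libraries.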

Other observations

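Integrins, the receptors that tie cells to matrix, were unevenly represented in the early KIC members. Itga6, a laminin receptor chain, stood at 174 CPM against 14.2 in the other barcodes of the library (12.3-fold higher), and Itga1, a collagen and laminin receptor chain, at 43.6 against 3.36 (13.0-fold). Their partner Itgb1 stood at 309 against 136 CPM (2.26-fold). Itgav, Itgb5 and Itga9, chains of receptors for vitronectin and other matrix proteins, were 6.22-fold, 4.64-fold and 4.97-fold lower, on 3, 3 and 1 member UMIs.

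Glycolysis genes lay close to the other barcodes, with Gapdh at 450 CPM against 408, Pkm at 160 against 159 and Aldoa at 283 against 280. The glucose transporter Slc2a1 (1 UMI in members) and the hexokinase Hk2 (32.7 against 170 CPM) were lower by 5.01-fold and 5.21-fold, and Ndrg1, a stress-responsive gene, was 2.87-fold higher. Among 15 ligands known to act on vessels, 13 were measured, of which 5 were at least 2-fold higher in members and 3 lower. Their median log2 ratio was 0.12, and over all genes 17.2% were higher and 16.4% lower. Pdgfb, the growth factor by which endothelium recruits pericytes, stood at 47.2 CPM against 2.86 (13 UMIs). Angpt1 and Fgf2, made mainly by cells around vessels, gave 0 UMIs in members and 50 and 112 in the other barcodes.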
